A study of Homo sapiens with 36 samples.

Results

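Replication-dependent histone genes were followed by class in LNCaP cells treated with inhibitors of cyclin-dependent kinase 4 (CDK4). Members were the genes of the expression table whose GENCODE symbols are H1-1 to H1-6, or H2AC, H2BC, H3C or H4C followed by a number. Of 69 annotated genes, 66 were in the table among 29872 genes, and H2BC9, H4C6 and H4C7 were not analysed here. The classes held 6 H1, 17 H2A, 17 H2B, 13 H3 and 13 H4 genes. LNCaP is an androgen-sensitive human prostate cancer line derived from a lymph node metastasis. Total RNA was sequenced from 36 libraries in 12 groups of 3 biological replicates. Cells received vehicle, AU2-94 at 1 or 2 µM, atirmociclib at 1 or 2 µM, or ribociclib at 2 µM, each for 24 or 72 h. AU2-94 and atirmociclib are CDK4-selective inhibitors and ribociclib inhibits CDK4 and CDK6. In kinase assays of the authors, atirmociclib was less selective for CDK4 than AU2-94 and also acted on CDK1, CDK2, CDK7 and CDK9. All cells came from the 1 line, the labels also give vehicle a dose of 2 µM, and cells for 72 h were seeded at a lower density, so that time and density cannot be told apart.

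Replication-dependent histones package newly made DNA. Pairs of H2A-H2B and H3-H4 form the core of the nucleosome, and linker H1 binds the DNA between nucleosomes. Their genes lie in clusters, are transcribed mainly in S phase, and give mRNAs that end in a stem-loop instead of a poly(A) tail. The stem-loop is bound by the stem-loop binding protein SLBP, while NPAT, a substrate of cyclin E-CDK2, drives their transcription at S-phase entry. CDK4 acts upstream, in G1, by phosphorylating RB. Because total RNA was used, mRNA without a poly(A) tail could be captured.

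Stem-loops are shown because they define how these mRNAs end and because they separate H4 from the other classes. A pattern of GG, any 3 bases, TTNTNA, any 3 bases and CC, sought on the coding strand within 100 bases after the stop codon of the longest coding transcript, was present in 64 of 66 members (97.0%) and in 17 of 17840 other coding genes (0.0953%). H2BC15 and H2BC18 held it only after the stop codon of another of their transcripts. Capitals mark the stem and lower case the loop, in the DNA letters of GRCh38.
H2BC14, H1-4, H1-5 and 36 other members: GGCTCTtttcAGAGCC
H2BC12, H1-6 and 7 other members: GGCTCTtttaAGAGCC
H4C5, H4C16 and 6 other H4 members: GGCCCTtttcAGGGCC
H4C14, H4C15, H4C9 and H4C12: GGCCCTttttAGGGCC
H3C6: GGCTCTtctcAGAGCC
All 13 H4 members carried a GGCCCT stem, whereas the first 2 forms covered 48 members of H1, H2A, H2B and H3.

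Promoter motifs were unevenly spread over the classes. Each motif was sought on both strands in the 250 bases before the RefSeq start (GRCh38.p14) of 61 members and compared with all 27305 promoters of the reference table. Divergent H2A and H2B partners, described further on, share most of these bases, so that 1 site can count for both members. CCAAT was found in 52 of 61 members (85.2%, against 33.0% of all promoters), including every matched H1, H2A, H2B and H3 member but only 2 of 11 H4 members. TATAAA was found in 41 (67.2%, against 11.1%). ATGCAAAT, the octamer, was found in 25 (41.0%, against 1.66%), of which 11 were H2A, 13 were H2B and 1 was H3. TTTCGCGC or TTTGGCGC, which are E2F-type motifs, were found in 11 of 61 (against 0.996% of all promoters), and none of these was H1 or H4. None of these motifs overlaps another in the region printed next. It is the 244-base interval shared by the divergent genes H2AC14 and H2BC14 (chr6:27814778-27815021, GRCh38, plus strand), printed because H2BC14 was among the members with the lowest values after treatment. Capitals mark the motifs.
H2AC14 to H2BC14: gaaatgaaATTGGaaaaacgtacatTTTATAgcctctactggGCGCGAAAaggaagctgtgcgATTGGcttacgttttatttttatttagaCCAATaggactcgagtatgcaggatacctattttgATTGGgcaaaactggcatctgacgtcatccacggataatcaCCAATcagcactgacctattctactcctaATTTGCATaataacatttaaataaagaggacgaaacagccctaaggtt
It holds 5 CCAAT, 1 TATAAA, 1 ATGCAAAT and 1 TTTCGCGC, counting both strands. The 250 bases before the start of H3C6 (chr6:26223928-26224177, GRCh38.p14, plus strand) are given for contrast, because H3C6 was among the members with the highest values relative to vehicle.
H3C6: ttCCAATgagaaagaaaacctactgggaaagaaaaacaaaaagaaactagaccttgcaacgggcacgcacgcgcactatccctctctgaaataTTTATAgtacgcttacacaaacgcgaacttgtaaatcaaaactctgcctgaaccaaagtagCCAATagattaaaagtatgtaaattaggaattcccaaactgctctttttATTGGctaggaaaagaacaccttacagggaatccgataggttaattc
This interval holds 3 CCAAT and 1 TATAAA and neither of the other motifs. Those 2 were also absent before H1-5, H3C2 and H3C15, which lay far below vehicle, and each was found in 1 of 11 H3 members. Whether motifs go with the changes was not tested.

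Values were the deposited normalised counts, tested as log2(value + 1) with limma across all genes with at least 10 in at least 3 libraries. Library totals were 20675200 to 22692600 normalised counts. Of the 66 members, 55 passed this filter at 24 h and 57 at 72 h, where H2BC1 and H2BC3 were added. Only vehicle libraries carried H1-6 and H3C3 past it at 24 h, and H2BC3 and H3C3 at 72 h. The remaining members not tested at any time included 8 that never reached 10 in any library, namely H1-1, H1-3, H2AC1, H2BC10, H3C7, H3C8, H4C9 and H4C13. A gene is called lower or higher where the Benjamini-Hochberg adjusted p was at most 0.05 and the log2 fold change at least 1 in size. Counts of members at an unadjusted p under 0.05 have no background, because the share of all genes was not counted there. The LNCaP markers KLK3 and HOXB13 were high in every library (lowest value 7109), whereas CD3E, KRT5 and TP63, which mark T cells and basal epithelium, were at or near 0. KRT14, another basal marker, was detected in every library, at 4.35 to 88.6 with a median of 41.8. The 11 markers of other cell types summed to 436 to 670 in vehicle and 269 to 766 in treated libraries, mostly COL1A1 (194 to 644), and their part in the results was not tested.

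In vehicle at 24 h the member with the highest level per kilobase of exon was H3C15 (20625 normalised counts per kilobase), followed by H2AC18 (18671), H2BC12 (16637), H4C11 (15868) and H1-4 (12100). By this measure these 5 genes each led 1 class, and the same 5 led at 72 h. Per kilobase of coding sequence, H4C15 (23097) lay above H4C11 (19976) in vehicle at 24 h. At 72 h H4C14 (21934) and H4C15 (21819) lay above H4C11 (19568). H3C15, H2AC18 and these H4 genes belong to near-identical copies, described further on. All 66 members summed to 0.860% to 0.921% of a vehicle library at 24 h and 0.961% to 0.999% at 72 h. Between vehicle at 72 h and at 24 h no member was called (limma, background 0.196% of genes called higher), 11 passed the adjusted p alone as higher (background 3.85%) and 23 were higher at an unadjusted p under 0.05.

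Every class was lower under every inhibitor at both times. The summed level of all members was 183601 ± 6080 normalised counts (SD, n = 3) in vehicle at 24 h and 35218 ± 1341 under atirmociclib 2 µM, which is 19.2% of vehicle. The totals at 24 h were 20.1% under atirmociclib 1 µM, 28.4% under ribociclib, 30.2% under AU2-94 2 µM and 41.4% under AU2-94 1 µM. At 72 h they were 25.1% under atirmociclib 2 µM, 31.0% under atirmociclib 1 µM, 44.8% under ribociclib, 51.1% under AU2-94 1 µM and 52.5% under AU2-94 2 µM. All treated libraries lay below all vehicle libraries. In order of the total, both atirmociclib groups at 24 h overlapped, as did ribociclib at 24 h with atirmociclib 2 µM at 72 h and AU2-94 2 µM at 24 h, and both AU2-94 doses at 72 h. In bulk samples, fewer cells in S phase and less histone mRNA per cell cannot be told apart.

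The H3 class was the lowest of the 5 relative to vehicle. Averaged over the 5 treatments at 24 h, its total was 19.0% of vehicle, against 27.5% for H1, 29.5% for H4, 29.7% for H2B and 30.1% for H2A. Under atirmociclib 2 µM at 24 h the H3 total was 2319, 2433 and 2569 normalised counts, against 26288, 26793 and 28648 in vehicle. H3 thereby made up 6.93% ± 0.09 (SD, n = 3) of all histone counts under atirmociclib 2 µM and 14.8% ± 0.18 in vehicle. Its share lay in between under atirmociclib 1 µM (7.62%), ribociclib (10.1%), AU2-94 2 µM (10.8%) and AU2-94 1 µM (12.3%), and the libraries of neighbouring groups at 24 h did not overlap. At 72 h the averaged totals were 35.9% for H3, 39.7% for H1, 41.8% for H2B, 42.3% for H2A and 42.9% for H4. The place of H3 depended on which genes were summed, since without the most abundant member of each class the H1 total at 24 h was 18.6% and the H3 total 21.4%.

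Called members were spread over all 5 classes, and none was called higher than vehicle by limma or was higher at an unadjusted p under 0.05. The background of genes called higher, in the order AU2-94 1 µM, AU2-94 2 µM, atirmociclib 1 µM, atirmociclib 2 µM and ribociclib, was 1.61%, 2.08%, 1.5%, 1.26% and 1.39% at 24 h and 3.51%, 3.02%, 4.06%, 3.87% and 2.95% at 72 h. At 24 h the number called lower, of 55 tested, was 37 under AU2-94 1 µM (background 2.4% of genes called lower), 43 under AU2-94 2 µM (2.94%), 48 under atirmociclib 1 µM (4.22%), 49 under atirmociclib 2 µM (4.82%) and 44 under ribociclib (3.66%). At 72 h it was, of 57, 25 under AU2-94 1 µM (0.869%), 22 under AU2-94 2 µM (0.838%), 49 under atirmociclib 1 µM (2.67%), 50 under atirmociclib 2 µM (3.67%) and 39 under ribociclib (1.54%). Members carried past the filter by vehicle alone could only come out lower, and without them the counts in the same order were 35, 41, 46, 47 and 42 of 53 at 24 h and 23, 20, 47, 48 and 37 of 55 at 72 h. Leaving out replicate 3 of AU2-94 2 µM at 72 h gave 14 in place of 22. The median log2 fold change of tested members at 24 h had -2.79 as its lowest and -1.43 as its highest value among the 5 comparisons, the 72 h values lay within -2.28 and -0.94, and the median over all genes was between -0.01 and 0.02 in every comparison. The 5 comparisons at each time share their vehicle libraries. All 15 treated libraries lay below all 3 vehicle libraries for 51 of 55 members at 24 h (background 10.7% of genes) and for 49 of 57 at 72 h (11.3%), or for 49 of 53 and 47 of 55 without those members.

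**Figure D1:**
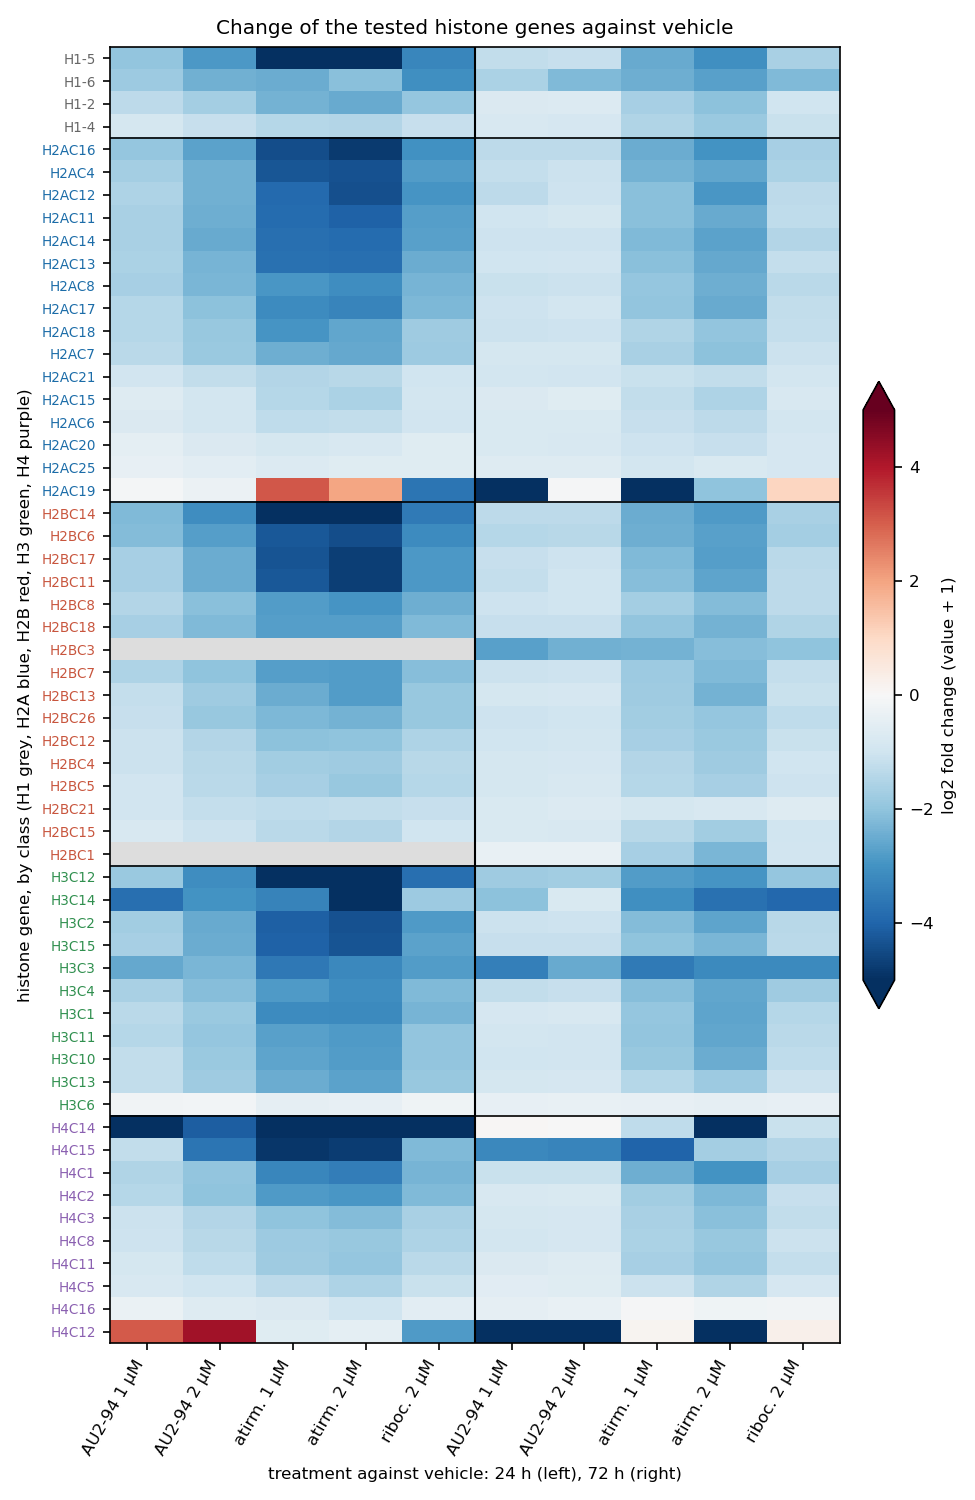
Log2 fold change against vehicle of each tested member (rows, by class) under each inhibitor at 24 and 72 h (columns), on a colour scale. Most members are below vehicle in all columns, with 37 of 55 called lower in all 5 treatments at 24 h and 22 of 57 at 72 h. The share of all genes called lower in all 5 cannot exceed the smallest share of a single treatment. That was 2.4% at 24 h and 0.838% at 72 h.

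By class, atirmociclib 2 µM at 24 h gave 4 of 4 tested H1, 13 of 16 H2A, 14 of 14 H2B, 9 of 11 H3 and 9 of 10 H4 members called lower (background 4.82% of genes). The 9 H4 members include the near-identical copies H4C11, H4C14 and H4C15, described further on, and leaving out 1 library gave 7 to 8. AU2-94 1 µM at 24 h gave 3 H1, 10 H2A, 11 H2B, 9 H3 and 4 H4 (background 2.4%). Atirmociclib 2 µM at 72 h gave 4 of 4 H1, 14 of 16 H2A, 15 of 16 H2B, 9 of 11 H3 and 8 of 10 H4 (background 3.67%). Without members that passed the filter through vehicle alone, these comparisons had 3 of 3 H1 and 8 of 10 H3, 2 of 3 H1 and 8 of 10 H3, and 14 of 15 H2B and 8 of 10 H3 called lower, with the other classes as given. Averaged over the 5 treatments at 24 h, the median log2 fold change was -2.17 for H1, -2.28 for H2A, -2.14 for H2B, -2.38 for H3 and -1.60 for H4, and without those members -1.97 for H1 and -2.37 for H3. The 5 comparisons left H2AC19, H2AC20, H2AC25, H3C6, H3C14 and H4C12 uncalled at 24 h, and H2AC19, H2AC25, H2BC21, H3C6, H3C14 and H4C16 at 72 h. Of these, H2AC19, H3C14 and H4C12 belong to near-identical copies, described further on.

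Linker H1 genes differed in how far they lay below vehicle. H1-5 (ENSG00000184357, chr6:27866792-27867588, minus strand, 1 exon) had 8635 to 9112 normalised counts in vehicle at 24 h. It had 2087 to 2441 under AU2-94 1 µM, 996, 1140 and 1562 under AU2-94 2 µM, 907 to 950 under ribociclib, 219 to 269 under atirmociclib 1 µM and 188, 219 and 192 under atirmociclib 2 µM. No treated library came near vehicle, and the groups stood apart except the 2 doses of atirmociclib. H1-5 fell by 5.47 ± 0.12 (log2, SE) under atirmociclib 2 µM, 44.4-fold lower, and by 2.88 ± 0.12 under AU2-94 2 µM (adjusted p = 4.52e-16 and 3.44e-12). At 72 h vehicle had 10804 to 11465 and atirmociclib 2 µM 1224, 1318 and 1420, a change of -3.08 ± 0.05.

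H1-4 (ENSG00000168298, chr6:26156329-26157115, plus strand, 1 exon), the most abundant H1 gene per kilobase, moved far less. It had 9731, 9419 and 9419 in vehicle at 24 h and 3538, 3573 and 3286 under atirmociclib 2 µM, 2.75-fold lower (log2 fold change -1.46 ± 0.06, adjusted p = 2.93e-12). Under AU2-94 1 µM it had 5196, 4769 and 5443, a change of -0.89 ± 0.06 that passed the adjusted p but not the fold threshold. At 72 h it had 11255, 11594 and 12467 in vehicle and 3364, 3175 and 3237 under atirmociclib 2 µM, 3.61-fold lower. The groups did not overlap at either time. H1-2 lay between H1-5 and H1-4, with 7952 to 8397 in vehicle and 1373 to 1503 under atirmociclib 2 µM at 24 h (5.74-fold lower). H1-6, the testis-type H1, was scarce, with 30.6, 18.4 and 27.5 in vehicle and 3.05, 5.40 and 7.70 under atirmociclib 2 µM at 24 h, when its vehicle libraries alone reached the filter.

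**Figure D2:**
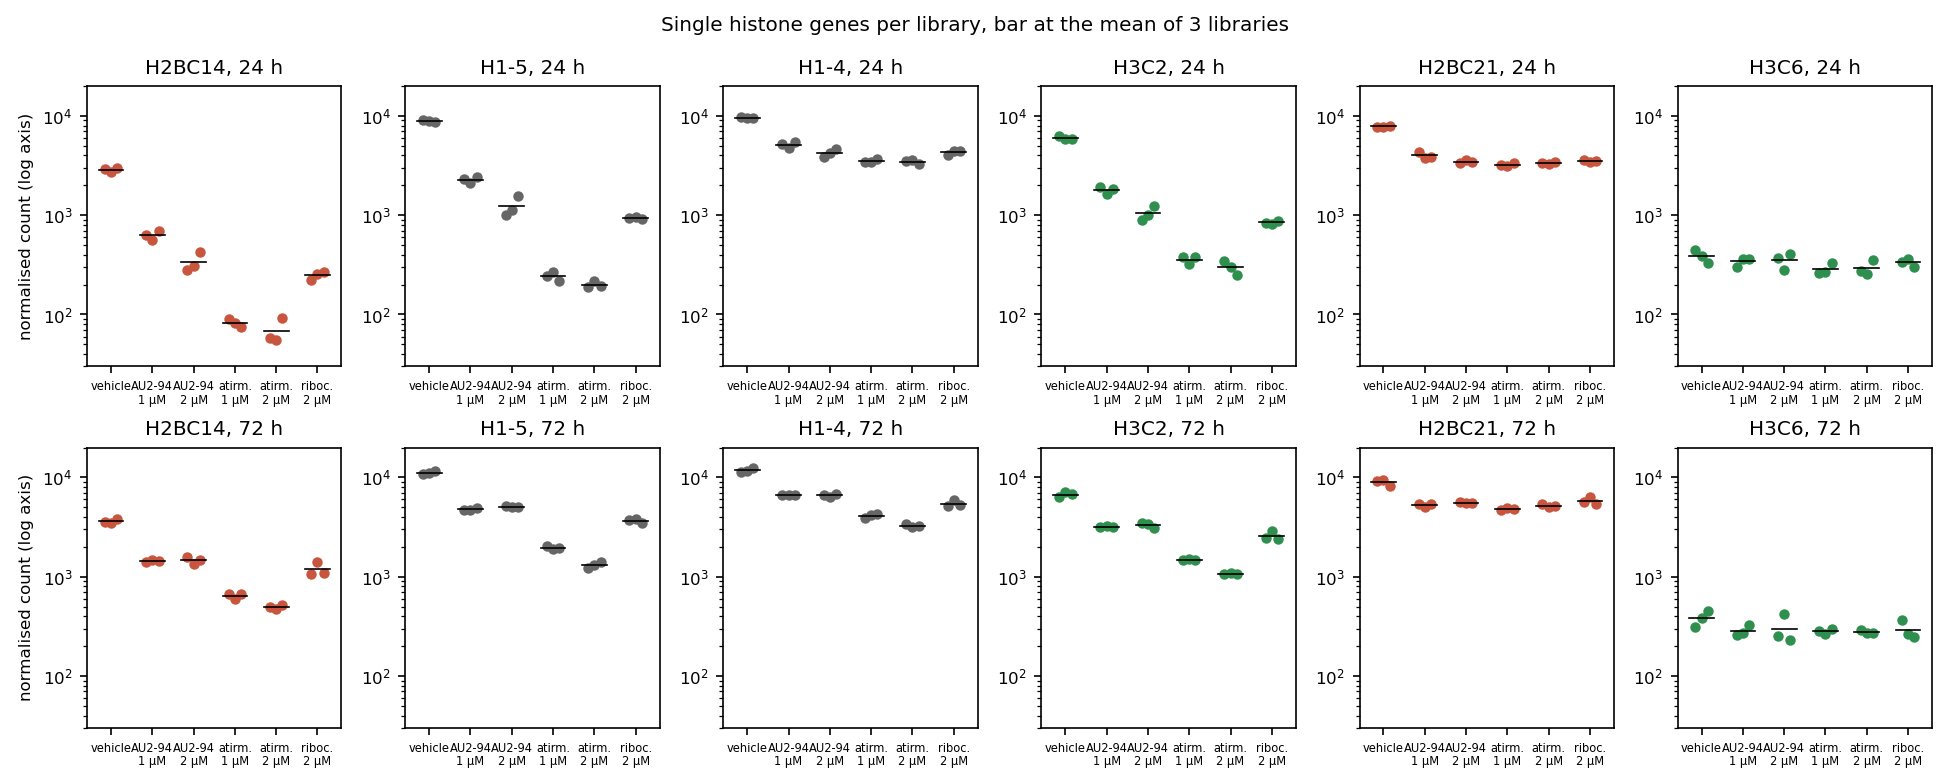
Normalised counts (log axis) of H2BC14, H1-5, H1-4, H3C2, H2BC21 and H3C6 in each library, by treatment and time. H2BC14 and H1-5 are 42.6-fold and 44.4-fold lower under atirmociclib 2 µM at 24 h, H1-4 is 2.75-fold lower, and the H3C6 libraries of vehicle and treated groups overlap.

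Among H2B genes at 24 h, H2BC14 (ENSG00000273703, chr6:27815022-27815489, plus strand, 1 exon) was the furthest below vehicle on average. It had 2949, 2712 and 2973 in vehicle at 24 h and 57.4, 55.9 and 91.5 under atirmociclib 2 µM, 42.6-fold lower (log2 fold change -5.41 ± 0.17, adjusted p = 3.37e-14). Ribociclib gave 220, 256 and 267, AU2-94 2 µM 279, 306 and 424, and AU2-94 1 µM 630, 561 and 696. Each of these groups stood clear of vehicle and of the 2 others. At 72 h vehicle had 3529, 3449 and 3820 and atirmociclib 2 µM 499, 474 and 525, 7.20-fold lower. AU2-94 1 µM had 1399, 1474 and 1446 at that time, and AU2-94 2 µM had 1593, 1350 and 1460, so that both doses overlapped.

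H2BC21 (ENSG00000184678, chr1:149884459-149886682, minus strand), which is annotated with an alternative long transcript end, had 7808, 7778 and 7915 in vehicle at 24 h. It had 3386, 3292 and 3454 under atirmociclib 2 µM and 3353, 3604 and 3421 under AU2-94 2 µM, which overlapped. It fell by 1.21 ± 0.05 and 1.18 ± 0.05 on the log2 scale. At 72 h it was not called in any comparison, although the average of the 5 treatments was -0.76 ± 0.05 (adjusted p = 2e-10). H2BC12 and H2BC18, the other most abundant H2B genes, fell by 2.00 ± 0.07 and 2.77 ± 0.07 under atirmociclib 2 µM at 24 h. Exons of H2BC18 overlap FCGR1A on the other strand by 177 bases, and the strand setting of the counting is not given in the sources used here.

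Averaged over the 5 treatments at 24 h, H2A genes changed by -3.37 to 0.21, the highest being H2AC19 of the copies described further on, and H2B genes by -3.88 to -1.14. H2AC14, the divergent neighbour of H2BC14, had 2493, 2417 and 2454 in vehicle at 24 h and 172, 188 and 147 under atirmociclib 2 µM. At the other end, H2AC20 (chr1:149886918-149887411, plus strand) had 5375, 4925 and 5353 in vehicle and 3021, 2949 and 2891 under atirmociclib 2 µM at 24 h. Its change of -0.82 ± 0.07 passed the adjusted p (6.59e-08) but not the fold threshold, and at 72 h it was -1.14 ± 0.07 and called. H2AC6 fell by 1.23 ± 0.07 under atirmociclib 2 µM at 24 h. H2AC25 had 417, 489 and 495 in vehicle and 342, 290 and 298 under atirmociclib 2 µM at 24 h, and its changes, from -0.41 to -0.91 over both times, stayed below the fold threshold in all 10 comparisons.

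Among H3 genes, H3C2 (ENSG00000286522, chr6:26031589-26032099, minus strand, 1 exon) had 6296, 5818 and 5887 in vehicle at 24 h and 343, 304 and 248 under atirmociclib 2 µM, 20.2-fold lower. AU2-94 2 µM gave 888, 1012 and 1225. H3C15 (chr1:149852608-149853125, plus strand), the member with the highest level per kilobase, had 10826, 10293 and 10933 in vehicle and 565, 542 and 500 under atirmociclib 2 µM. The groups were far apart in both genes. H3C12 had 155, 120 and 141 in vehicle and 3.07, 4.31 and 0 under atirmociclib 2 µM, a fitted change of -5.64 ± 0.51, and 346 bases of its exons (40.3%) overlap H2AC17 on the same strand. H3C3 had 10.1, 10.5 and 12.3 in vehicle and 0, 0 and 1.11 under atirmociclib 2 µM, with only its vehicle libraries reaching the filter. H3C10 fell by 2.81 ± 0.10.

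H3C6 (ENSG00000274750, chr6:26224199-26227473, plus strand, more than 1 exon) was the H3 gene closest to vehicle. It had 445, 390 and 329 in vehicle at 24 h and 277, 255 and 350 under atirmociclib 2 µM. The groups overlapped, and the change of -0.40 ± 0.15 had an adjusted p of 0.0495. Averaged over the 5 treatments it was -0.27 ± 0.12 at 24 h (adjusted p = 0.0786) and -0.41 ± 0.15 at 72 h (adjusted p = 0.0315), and H3C6 was called in none of the 10 comparisons.

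H4 genes had the smallest median change. H4C5 (chr6:26204610-26205021, plus strand) had 4595, 4619 and 4733 in vehicle at 24 h and 1733, 1616 and 1460 under atirmociclib 2 µM, 2.91-fold lower, and H4C11 was 3.85-fold lower. H4C16, the single H4 gene on chromosome 12 (chr12:14767999-14771131, minus strand), had 763, 721 and 683 in vehicle and 401, 333 and 342 under atirmociclib 2 µM at 24 h, where it fell by 1.01 ± 0.10. At 72 h H4C16 had 830, 920 and 835 in vehicle, 747, 857 and 862 under atirmociclib 1 µM and 647, 595 and 668 under AU2-94 1 µM. Atirmociclib overlapped vehicle there and AU2-94 did not, and the difference between both agents at 1 µM was 0.37 ± 0.08 (adjusted p = 0.00703, with 4.53% of genes past the adjusted p as higher). This was the 1 member higher under atirmociclib than under AU2-94 at the adjusted p, in any of the 4 comparisons of both agents.

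Some members could not be read singly, because another member has nearly the same sequence. H4C14 and H4C15 are identical over 1878 bases, H3C14 and H3C15 over 518, H2AC18 and H2AC19 over 533, and H4C11 and H4C12 are 99.2% identical over 386. Under atirmociclib 1 µM at 24 h H4C14 had 1.28, 755 and 2.72 normalised counts and H4C15 746, 20.4 and 900 in the same 3 libraries, so that either gene held nearly all of the counts. Summed, H4C14 and H4C15 had 11037, 11449 and 13203 in vehicle at 24 h and 616, 787 and 822 under atirmociclib 2 µM, a change of -4.01 ± 0.12. The averaged change of the sum was -2.95 ± 0.09 at 24 h and -1.62 ± 0.06 at 72 h. The sums of H3C14 with H3C15, H2AC18 with H2AC19 and H4C11 with H4C12 changed by -3.04, -1.87 and -1.43 at 24 h and by -1.59, -1.21 and -1.19 at 72 h. Fitted singly, averaged changes of these genes ranged from -6.22 for H4C14 to 0.67 for H4C12 at 24 h, and H4C12 was -3.41 and H4C15 -2.74 at 72 h. With the pairs summed, 38, 44, 47, 48 and 44 of 51 features were called lower at 24 h under AU2-94 1 and 2 µM, atirmociclib 1 and 2 µM and ribociclib, and 26, 22, 49, 49 and 38 of 53 at 72 h.

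Agents differed at matched dose and time, with members lower under atirmociclib than under AU2-94. At 1 µM, 31 members were called lower at 24 h (background 0.93%) and 14 at 72 h (0.447%), with median differences of -1.26 and -0.81. At 2 µM, 18 were called lower at 24 h (0.917%) and 34 at 72 h (1.7%), with medians of -0.91 and -1.23. H1-5 showed the largest difference at 24 h among called members, -2.60 ± 0.12 at 2 µM (adjusted p = 2.91e-10), and differed by -1.94 ± 0.05 at 72 h. H3C12 followed at 24 h with -2.52 ± 0.51, and H2BC14 differed by -2.30 ± 0.17 at 24 h and -1.55 ± 0.09 at 72 h. H1-4 differed by -0.29 ± 0.06 at 24 h and by -1.02 ± 0.05 at 72 h. H4C14 differed by -6.53 ± 1.15 at 72 h, but it is one of the identical copies and its sum with H4C15 had means of 2328 under atirmociclib and 6413 under AU2-94. H2BC21 showed no detectable difference at 2 µM, with -0.03 at 24 h (95% confidence interval -0.13 to 0.06) and -0.11 at 72 h (-0.23 to 0.02). At 1 µM it was lower under atirmociclib by 0.31 ± 0.05 at 24 h (adjusted p = 0.000286), below the fold threshold, and differed by -0.13 ± 0.06 at 72 h (adjusted p = 0.219).

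Atirmociclib also gave lower values than ribociclib at 2 µM, with 16 members called lower at 24 h (background 0.378%) and 24 at 72 h (0.636%), at medians of -0.71 and -0.95. H1-5 differed by -2.22 ± 0.12 and -1.47 ± 0.05, and H2BC14 by -1.88 ± 0.17 and -1.24 ± 0.09. Between ribociclib and AU2-94 at 2 µM no member was called by limma at 24 h (background 0.0124% called lower) and none passed the adjusted p as lower (0.0186%). At an unadjusted p under 0.05, for which no background was counted, 11 were lower and 1 higher. The difference in H2BC14 was -0.42 at 24 h (95% confidence interval -0.78 to -0.06, adjusted p = 0.327) and that in H1-4 was 0.02 (-0.11 to 0.16). At 72 h none was called (background 0.135%) and 19 passed the adjusted p alone as lower under ribociclib (1.38%), with 36 lower and 2 higher at an unadjusted p under 0.05. H1-5 differed by -0.47 ± 0.05 there (adjusted p = 7.75e-05). Replicate 2 of ribociclib at 72 h summed to 104324 histone counts, above the 89377 and 91380 of the other libraries of its group.

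Raising the dose from 1 to 2 µM had different results for the 2 agents. For AU2-94 at 24 h no member was called by limma (background 0%), but 22 passed the adjusted p alone as lower (0.384%) and 46 did at an unadjusted p under 0.05, at a median of -0.50. H2BC14 differed by -0.92 ± 0.17 (adjusted p = 0.0205) and H1-5 by -0.91 ± 0.12. Without replicate 3 of AU2-94 2 µM at 24 h, whose histone values were the highest of its group, 3 members were called. For AU2-94 at 72 h no member passed any threshold, at an unadjusted p under 0.05 either, and H2BC14 differed by 0.02 (95% confidence interval -0.16 to 0.21). For atirmociclib at 24 h no member passed the adjusted p as lower (0.0062%), 14 were lower at an unadjusted p under 0.05, and H2BC14 differed by -0.29 (-0.65 to 0.07). For atirmociclib at 72 h, 30 passed the adjusted p as lower (0.936%) at a median of -0.40, among them H1-5 with -0.57 ± 0.05, and 1 member, the copy H4C14, was called (0.0612%).

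Effects at 24 h were larger than at 72 h for many members. The effect at 72 h minus the effect at 24 h, averaged over the 5 treatments in 1 fit of all 36 libraries, was called higher for 14 of 58 tested members (background 3.96%), and 38 passed the adjusted p alone as higher (14.9%). Single agents gave 0 called for AU2-94 1 µM (2.89%), where 19 passed the adjusted p alone (10.1%) and 26 an unadjusted p under 0.05, 20 for AU2-94 2 µM (2.97%), 20 for atirmociclib 1 µM (3.73%), 14 for atirmociclib 2 µM (3.67%) and 16 for ribociclib (3.54%). AU2-94 2 µM also had 1 member called lower, the copy H4C12 (0.546%). The difference was largest among called members for H2BC14, at 1.97 ± 0.15, and H1-5, at 1.84 ± 0.10. For H1-4 it was -0.01 (95% confidence interval -0.14 to 0.13), and for H3C6 -0.14 (-0.55 to 0.27). Under atirmociclib 2 µM, H1-4 went the other way, with an effect at 72 h lower by 0.39 ± 0.09 (adjusted p = 0.00101).

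Position and transcript form varied within classes. Of the 66 members, 12 are annotated with more than 1 exon or with an end over 200 bases past the stop codon, among them H2AC6, H2AC25, H2BC18, H2BC21, H3C6 and H3C10. Their averaged median change at 24 h was -1.47, against -2.37 for the other 43 tested members, and at 72 h -1.18 against -1.55 for 45. At 24 h the medians were -2.26 for 22 members tested in the chromosome 6 cluster at 25.7 to 26.3 Mb, -2.78 for 19 at 27.1 to 27.9 Mb, -2.13 for 11 at 149.8 to 149.9 Mb on chromosome 1 and -1.24 for 2 near 228.4 Mb.

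Divergent H2A-H2B pairs, 12 in number, share intervals of 169 to 250 bases, and the values of partners varied. H2AC8 and H2BC8 changed by -2.46 and -2.35 on average at 24 h, and H2AC15 and H2BC15 by -1.09 and -1.14. H2AC12 changed by -3.03 ± 0.17 and its partner H2BC12 by -1.62 ± 0.06. In the pair H2AC25 and H2BC26 the order was opposite, with -0.56 ± 0.08 for the H2A and -1.91 ± 0.14 for the H2B gene, and H2AC14 and H2BC14 changed by -2.89 ± 0.08 and -3.88 ± 0.13. Partners were not tested against each other.

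Members whose 12 group means were most like those of H2BC14 were H3C15 (Pearson r = 0.999), H1-5 (0.997), H3C2 (0.995), H3C12 (0.994) and H2AC4 (0.994). These 5 did not stand apart, since H2AC16, H2BC11 and H2BC17 each followed with 0.993. The lowest was H2AC19, with -0.049. The correlations are descriptions over 12 groups that share the contrast between vehicle and treated cells.

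Some genes that act on histones were called lower. Of 24 genes for histone transcription and mRNA processing, 3 were called lower averaged over the treatments at 24 h (background 3.67%), namely CCNE2, E2F1 and CDK2, and the median was -0.19. Of the 24, 13 passed the adjusted p alone as lower, as did 3104 of all 16137 genes. Under atirmociclib 2 µM at 24 h, CCNE2, a cyclin E, fell by 4.52 ± 0.25, the S-phase transcription factor E2F1 by 1.69 ± 0.09 and CDK2 by 1.39 ± 0.10. SLBP changed by -0.62 ± 0.09 and NPAT by -0.54 ± 0.14, both past the adjusted p and below the fold threshold. The uridylyltransferase TUT7 was the 1 gene of the list past the adjusted p as higher, at 0.47 ± 0.07 averaged over the treatments.

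Of 21 histone chaperone genes, 6 were called lower on average at 24 h (background 3.67%), at a median of -0.31, and 1 at 72 h (background 1.7%). On average at 24 h, 13 of the 21 passed the adjusted p alone as lower, as did 3104 of all 16137 genes. Under atirmociclib 2 µM at 24 h the H3-H4 chaperone ASF1B fell by 2.36 ± 0.12, the chromatin assembly subunit CHAF1B by 2.21 ± 0.13 and MMS22L by 1.17 ± 0.11. SSRP1, a FACT subunit, changed by -0.89 ± 0.05 at 72 h. Of 39 DNA replication genes, 28 were called lower on average at 24 h (background 3.67%) and 7 at 72 h (1.7%), at medians of -1.17 and -0.79. RRM2, CLSPN and TYMS, which act in nucleotide supply and fork protection, fell by 4.43 ± 0.17, 4.66 ± 0.14 and 2.88 ± 0.09 under atirmociclib 2 µM at 24 h.

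Among other histone variants, more passed the adjusted p as lower than as higher at 24 h, and the rises were small. Of 11 tested, 7 passed it as lower and 3 as higher on average at 24 h, with 0.17 as the highest log2 fold change. Of all 16137 genes, 3104 passed as lower and 3348 as higher. At the fold threshold, 2 were called lower (background 3.67%), the centromeric H3 CENPA, by 3.15 ± 0.29 under atirmociclib 2 µM, and the DNA damage variant H2AX, by 2.29 ± 0.08. H2AZ1 changed by -0.68 ± 0.04, and H3-3A, which encodes the variant H3.3, by 0.08 ± 0.04 (adjusted p = 0.174). H3-3A was named after its values were seen. On average at 72 h, 8 of the 11 variants passed the adjusted p as lower and 0 as higher. Of all 16341 genes, 3551 and 3554 did.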

How the data were processed

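LNCaP total RNA libraries (Universal Plus Total RNA-Seq with NuQuant, 12 amplification cycles, paired-end reads on a DNBSEQ G400) were aligned by the authors with STAR 2.6.1d to GRCh38 (hg38) and normalised with DESeq2. The deposited signal is a normalised count per gene, not whole; counter, annotation release and strand setting are not given in the sources used here. Values therefore went as log2(value + 1) to limma 3.58.1 (R 4.3.3), with eBayes trend and Benjamini-Hochberg adjustment over 16137 genes at 24 h, 16341 at 72 h and 16850 across both. Each fit used the 18 libraries of 1 time, or all 36 for differences between times. The precision is set by 3 replicates a group, and read depth before normalisation is unknown.

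Symbols, exons and stop codons came from GENCODE release 44, promoters from RefSeq, and copies from BLAST 2.17.0 (at least 98% identity over 80%). Python 3.11.15 with pandas 2.3.3 made the tables. The fit was tested on simulated data. Members, lists and tests were chosen with earlier results of these data known. Named members were H2BC14, the 3 most abundant of each class, the 3 lowest and 3 highest averaged changes at each time and the 2 largest called differences between atirmociclib and AU2-94 at 2 µM; of each other list, the 3 largest changes past the adjusted p in all 5 treatments at a time. Further members (H1-6, H2AC14, H2AC25, H3C6 at both times, the divergent partners, SLBP, NPAT and TUT7) were named after their values were seen.

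The labels' batch tag carries only the replicate number, the main fit had no block, and the block was run as an alternative. Deviations of same-numbered libraries from their group means correlated at 0.00179 on average (-0.0898 to 0.112, 45 pairs) at 24 h and -0.00217 (-0.0797 to 0.0502) at 72 h, so that a batch shared by equal numbers was not apparent. Alternatives covered the pseudocount, filter, scaling, trend, libraries fitted, replicate block, GC and length correction, copies, class membership and leaving out each library. Counts without members that passed the filter through vehicle alone, and stop codons of any transcript, were alternatives chosen after seeing the data.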

Additional observations from a re-analysis of the deposited data

Results flagged for a closer look

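The treatment effect differed between 72 h and 24 h by an interaction term in the fit of all 36 libraries for 12 of 23 named members tested, at an adjusted p of at most 0.05. Of all genes, 14.9% passed this adjusted p as higher and 3.96% were called higher. Some named members were chosen by their averaged change at 24 or 72 h, and those values enter this difference. The change of this effect from 24 h to 72 h, averaged over the 5 treatments, was 1.97 ± 0.15 (log2, SE) for H2BC14 (limma adjusted p = 2.98e-11), 1.84 ± 0.10 for H1-5 (5.94e-14), 1.64 ± 0.44 for H3C12 (0.00469), 1.46 ± 0.10 for H3C15 (6.96e-12) and 1.44 ± 0.11 for H3C2 (9.73e-12). These 5 also reached a size of 1 on the log2 scale. The other 7, below that size, had 0.78 ± 0.22 for H2AC18, 0.74 ± 0.06 for H1-2, 0.70 ± 0.07 for H2BC18, 0.57 ± 0.10 for H3C10, 0.40 ± 0.06 for H2BC21, 0.40 ± 0.10 for H4C16 and 0.31 ± 0.08 for H2BC12. All 12 were lower than vehicle at both times on average and nearer to vehicle at 72 h. H2AC18 and H3C15 are among the identical copies. With 3 libraries a group, single libraries were not tested for standing apart.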

How the results depend on the processing

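Counts of members called lower than vehicle stayed within 1.5 times under every alternative, apart from leaving out libraries, and no named member of these comparisons turned past the threshold in the other direction. With the replicate block, AU2-94 1 µM at 24 h gave 36 called members in place of 37, and the block moved no count of calls by over 1.5 times. A GC and length correction with the replicate block gave 32 in place of 25 for AU2-94 1 µM at 72 h. Scaling each library to the same total shifted the median of all genes by up to -0.10, for atirmociclib against AU2-94 at 2 µM and 72 h.

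Leaving out 1 library moved AU2-94 2 µM against vehicle at 72 h between 14 and 23 called members, and AU2-94 2 against 1 µM at 24 h between 0 and 3. Atirmociclib 2 against 1 µM at 72 h had 0 to 1 called members on leaving out a library and 0 without the trend, in 1 fit of all 36 libraries or with copies summed. Ribociclib against AU2-94 at 24 h had 1 when only the groups compared were fitted. The effect of AU2-94 1 µM between times had 1 member called higher in that fit and 0 to 1 on leaving out a library. Vehicle at 72 against 24 h had 1 called higher in that fit and with no filter, and 0 to 1 on leaving out a library.

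Without the most abundant member, class totals averaged over the treatments were 18.6% (24 h) and 37.1% (72 h) of vehicle for H1, 26.8% and 38.5% for H2B, and 21.4% for H3 at 24 h. Without members of more than 1 exon or a long end they were 24.3% and 37.8% for H2B and 16.9% for H3 at 24 h.

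Some values changed sign, several of them near 0 and others, mainly of copies, further from it. The difference between times for H1-4 was 0.064 under quantile normalisation, 0.032 with equal totals and -0.041 to 0.033 on leaving out a library. H3C6 in atirmociclib against AU2-94 at 2 µM and 72 h was 0.017 under quantile normalisation and -0.23 to 0.21 on leaving out a library, and H3C6 under AU2-94 2 µM at 24 h was -0.25 to 0.013. H4C16 under atirmociclib 1 µM at 72 h was 0.017 with the GC and length correction, with or without the block. Leaving out a library gave -0.021 to 0.081 for H2AC6 between times and -1.22 to 0.033 for H3C3 in atirmociclib against AU2-94 at 2 µM and 72 h. Among copies it gave for H2AC19 -0.92 to 3.87 (24 h) and -4.09 to 1.52 (72 h) in the same comparison, -3.12 to 2.11 averaged at 24 h and -4.59 to 0.64 between times, for H4C12 -2.50 to 1.93 in that comparison at 72 h and -0.75 to 3.50 averaged at 24 h, and for H4C15 -3.05 to 0.28 in that comparison at 24 h and -0.082 to 1.09 between times. The causes were not tested. Values under about 10 normalised counts limit H1-6, H3C3 and H3C12.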
